A study of Homo sapiens and Mus musculus with 16 samples.

Results

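The RNA of processing bodies (P-bodies) was compared with that of the cytoplasm in 3 human cell types, and the genes whose transcripts kept the same order of the 2 fractions in every cell type are described here. All 12 human libraries were used, and 6330 of the 22286 genes in the human count table were tested, namely those with a mean of at least 10 CPM (counts scaled to the library total) in each cell type. A gene was called enriched (higher in P-bodies) or depleted (lower in P-bodies) by a shared P-body term with cell type as a block at an edgeR adjusted p under 0.05. It was counted as enriched or depleted in every cell type when, beside that call, both P-body libraries lay above or below both cytoplasm libraries in each of the 3 cell types.

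P-bodies are membrane-free condensates of the cytoplasm that hold untranslated mRNA with proteins of translational repression, decapping and deadenylation. LSM14A and the RNA helicase DDX6 are among the proteins they are built from, and mRNA that is actively bound by ribosomes is largely found outside them. P-bodies were sorted as fluorescent particles from lysed cells that expressed LSM14A fused to green fluorescent protein, and their RNA was sequenced beside that of the cytoplasmic fraction loaded on the sorter, which still contained P-bodies.

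The 6 groups were P-bodies and cytoplasm of HEK293T cells, of liver bud progenitors and of neurons, with 2 libraries each. HEK293T is a human embryonic kidney line, used here as HEK293T-LSM14a-GFP with the fusion delivered by lentivirus. Liver bud progenitors (mature endoderm progenitors grown with growth factors and inhibitors) and neurons at day 20 of differentiation were both derived from UCLA4-LSM14a-GFP, a human embryonic stem cell line with the fusion at the AAVS1 locus. All groups therefore carried the LSM14A fusion and none received a further treatment. The HEK293T libraries were labelled total RNA and primed at random, the others polyA RNA and primed on poly(A) tails, so RNA kind and HEK293T cannot be told apart.

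The libraries held between 6368953 and 17972284 counts, and a floor of 3 counts stood at 0.167 to 0.471 CPM, which covers counting error only. The tested genes took 85.3 to 92.7% of the counts of a library. Ribosomal RNA genes took 4.32 to 13.4% in the P-body libraries and 15.9 to 24.9% in the cytoplasm libraries. The 12 neuron marker genes summed to 11700 to 13200 CPM in neuron libraries and to 96.6 to 638 CPM in the others. The 16 liver bud progenitor and foregut genes summed to 260 to 273 CPM in liver bud progenitor P-bodies, where 7 of the 16 reached 10 CPM, to 534 to 548 CPM in the cytoplasm of the same cells, where ALB was at 0, and to 271 to 274 CPM in neuron P-bodies against 59.1 to 62.1 CPM in neuron cytoplasm. The 10 genes of primed pluripotent cells were also higher in P-body than in cytoplasm libraries, at 3340 to 3390 against 2000 to 2040 CPM in liver bud progenitors, where 9 of 10 reached 10 CPM, and at 427 to 444 against 120 to 122 CPM in neurons. In such bulk libraries, fewer cells of a type and less RNA per cell cannot be told apart, and the part of cell mixture in the results was not tested.

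Stretches of coding sequence from the genes with the strongest common effect are shown first, because held and excluded genes differed in GC content at the third codon position. Each line gives 10 codons from the middle of the coding exon that holds the midpoint of the coding sequence. Sequences are from the longest coding transcript (GENCODE 44, hg38, 5′ to 3′ on the coding strand), with the third base of each codon in capitals. The first 4 genes were enriched in P-bodies of every cell type.
ZCCHC10 (exon 4, chr5:133000140-133000169, minus strand): ggAgaAacCaaTgtAgaAagAaaGgcCaaG
MBIP (exon 4, chr14:36314546-36314575, minus strand): aaGcaAgcTgaAatCaaTgaAaaCaaCgtC
BLZF1 (exon 4, chr1:169378414-169378443, plus strand): aaTcaGctTatTttAgaAaaTgaAgcCctA
CIR1 (exon 9, chr2:174350689-174350718, minus strand): gaTccAgaAgtTgaAttTttAaaGtcActA
The next 3 genes were depleted in P-bodies of every cell type.
WNK2 (exon 15, chr9:93263633-93263662, plus strand): ggCagGctGgaGggCagGgcAgcCcgAaaA
POLR2A (exon 18, chr17:7503421-7503450, plus strand): aaTgcTcaGaaAatCttCcaCatCaaCccA
AGRN (exon 18, chr1:1046873-1046902, plus strand): agGgcTtcCtgCtaCaaCtcCgcGttGggC
Of the 10 capitals in each enriched gene, 4 were G or C in ZCCHC10, 5 in MBIP, 2 in BLZF1 and 1 in CIR1. Of those in the depleted genes, 7 were G or C in WNK2, 6 in POLR2A and 9 in AGRN. Over the whole coding sequence, GC at the third codon position was 41.7% in ZCCHC10, 35.2% in MBIP, 31.5% in BLZF1 and 41.1% in CIR1, and 76.1% in WNK2, 68.6% in POLR2A and 80.5% in AGRN.

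By the rule of libraries that did not overlap, 3459 of the 6330 tested genes had a common direction in the 3 cell types. The shared term called 2260 genes enriched (35.7% of those tested) and 2298 depleted (36.3%), and 1772 were not called. A cell type with the other sign was seen for 225 of the genes called enriched and 289 of those called depleted. In every cell type, 1775 genes were enriched (28% of those tested) and 1684 depleted (26.6%). The enriched genes had a median change of 0.87 on the log2 scale (1.83-fold), and the depleted genes one of -0.91 (1.88-fold lower), against -0.01 over all genes tested. At least a 2-fold difference in each cell type was seen for 138 enriched and 223 depleted genes. When an adjusted p under 0.05 in each cell type's own test was asked for in place of libraries that did not overlap, an alternative chosen after the data were seen, 1513 genes were enriched and 1357 depleted.

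The genes of the enriched class took a larger share of the sorted RNA. In HEK293T they held 49.5% and 50.3% of the counts of the P-body libraries and 28.3% and 27.7% of those of the cytoplasm libraries. Their share was 36.9% and 36.8% against 22.3% and 21.3% in liver bud progenitors. It was 26.5% and 28.2% against 9.58% and 10.6% in neurons. The depleted class fell from 29.8% and 29.6% of the cytoplasm counts to 11.9% and 11.2% of the P-body counts in HEK293T, and the fractions of the other cells likewise did not overlap. These shares follow from how the classes were chosen and are a description. Averaged over the cytoplasm libraries of the 3 cell types, the median CPM was 66.2 for enriched, 64.7 for depleted and 52.4 for the other tested genes. The sums were further apart: the depleted class held 43.8% and 41.5% of the counts in neuron cytoplasm and 33.6% and 35% in liver bud progenitor cytoplasm, above the enriched class in both.

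Among the enriched genes the change was largest in neurons for 1156, in HEK293T for 433 and in liver bud progenitors for 186, with median log2 changes of 1.14, 0.86 and 0.65. The depleted genes were more even, with the most negative value in HEK293T for 650, in liver bud progenitors for 578 and in neurons for 456. Across the 6330 genes the log2 changes of HEK293T and neurons had a Spearman correlation of 0.822, those of liver bud progenitors and neurons 0.68 and those of HEK293T and liver bud progenitors 0.564. These are descriptions across genes, which are not independent replicates. Both polyA cell types also share a parent line and a library kind.

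**Figure D1:**
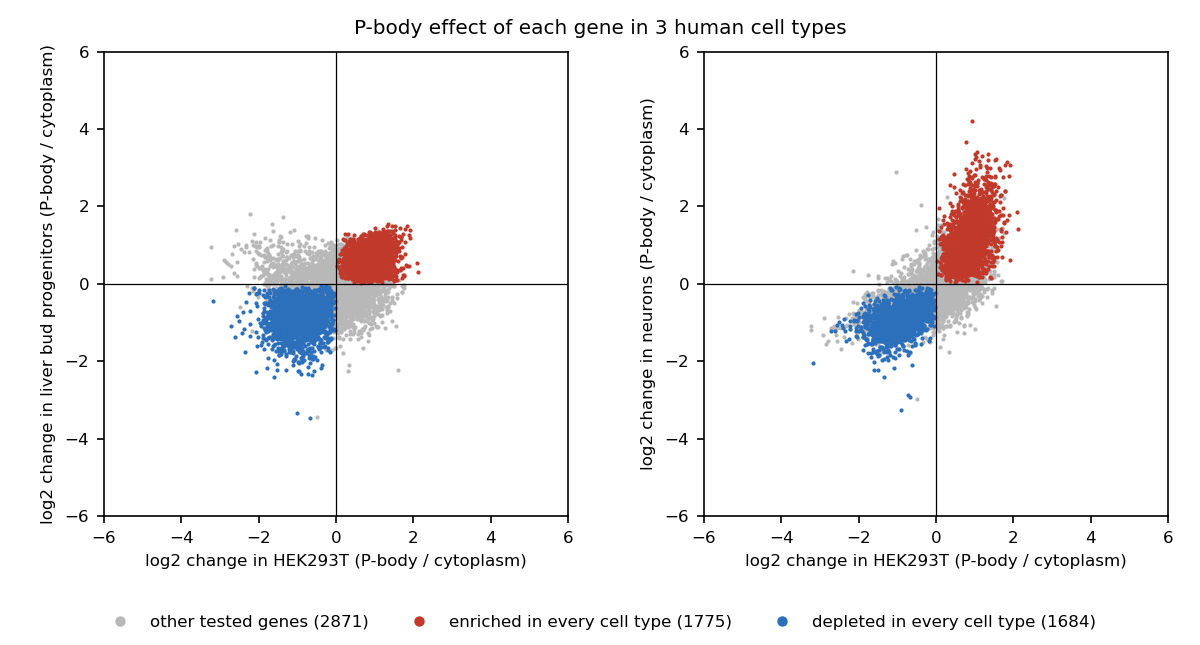
Each point is a tested gene, with its log2 change (P-body over cytoplasm) in HEK293T on the x axis and in liver bud progenitors (left) or neurons (right) on the y axis. Red points (1775) were enriched and blue points (1684) depleted in every cell type, and grey points are the 2871 other tested genes. Red points lie in the upper right and blue points in the lower left part because of the rule, and the upper left of the left panel holds grey genes that were lower in HEK293T P-bodies and higher in those of liver bud progenitors. RNA45SN4, a multi-copy ribosomal RNA gene, lies outside the axes of the right panel.

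The genes most firmly held in P-bodies were ranked by their smallest change over the 3 cell types. ZCCHC10, a zinc knuckle protein gene, had 128 and 132 CPM in HEK293T P-bodies against 38.0 and 34.7 in the cytoplasm, 53.7 and 57.9 against 19.7 and 20.1 in liver bud progenitors, and 39.0 and 40 against 4.38 and 4.49 in neurons. MBIP, a subunit of the ATAC histone acetyltransferase complex, had 294 and 275 against 99.9 and 97.4 CPM in HEK293T, 134 and 138 against 48.2 and 49.1 in liver bud progenitors, and 56.8 and 63.8 against 10.5 and 9.71 in neurons. BLZF1, which encodes a Golgi matrix protein, had 502 and 509 against 154 and 165 CPM in HEK293T, 216 and 239 against 87.1 and 81.2 in liver bud progenitors, and 184 and 178 against 21.0 and 26.2 in neurons. The P-body libraries of these genes were above the cytoplasm libraries in each cell type because of the rule, and the ratio was widest in neurons. The shared log2 changes were 2.08 (SE 0.22, edgeR adjusted p = 4.69e-06) for ZCCHC10, 1.83 (SE 0.16, 1.74e-06) for MBIP and 1.99 (SE 0.21, 5.59e-06) for BLZF1.

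OTUD6B-AS1, a noncoding antisense transcript, came next, with 73.3 and 92.7 against 31.1 and 29.3 CPM in HEK293T, 54.4 and 48.3 against 17.9 and 18.4 in liver bud progenitors, and 23.2 and 32.5 against 6.46 and 7.4 in neurons. Its shared log2 change was 1.63 (SE 0.13, edgeR adjusted p = 1.05e-06). Whether the counting used strand is not stated, so reads of an antisense gene and its partner cannot be told apart. The other enriched genes of the first 15 were CIR1 (a transcriptional corepressor, log2 change 2.07), the zinc finger genes ZNF20 (2.09), ZNF680 (1.97), ZNF350 (1.57) and ZNF92 (1.84), SREK1IP1 (a splicing factor partner, 1.41), CENPQ (a kinetochore subunit, 1.79), CCDC181 (1.52), PUS3 (a tRNA pseudouridine synthase, 1.74), VTA1 (an endosomal sorting cofactor, 1.37) and C21orf91 (1.85). SREK1IP1 had changes of 1.4, 1.35 and 1.5 in HEK293T, liver bud progenitors and neurons, and VTA1 of 1.45, 1.36 and 1.32. A difference between cell types was not called for either (edgeR adjusted p = 0.679 and 0.431).

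At the other end, SMG1P3, a pseudogene copy of the kinase gene SMG1, had 10.4 and 6.64 CPM in HEK293T P-bodies against 28.3 and 23.5 in the cytoplasm, 52.7 and 52.6 against 315 and 242 in liver bud progenitors, and 13.7 and 14 against 60.3 and 69.0 in neurons. Its log2 change was -2.09 (SE 0.16, edgeR adjusted p = 7.48e-07), but reads of near-identical SMG1 copies could be split between genes, so this value is uncertain. POLR2A, the largest subunit of RNA polymerase II, had 95.9 and 92.9 against 311 and 331 CPM in HEK293T, 137 and 134 against 504 and 523 in liver bud progenitors, and 390 and 345 against 1090 and 1020 in neurons. Because of the rule, every POLR2A P-body library lay below every cytoplasm library of its cell type. Its log2 changes were -1.77, -1.92 and -1.53 in that order of cells, with a shared change of -1.74 (SE 0.093, edgeR adjusted p = 5.48e-07).

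WNK2, a serine/threonine kinase gene, had 6.14 and 3.54 against 16.0 and 17.1 CPM in HEK293T, 7.55 and 8.59 against 30.4 and 41.9 in liver bud progenitors, and 56.1 and 48.8 against 166 and 142 in neurons. AGRN, which encodes the secreted proteoglycan agrin, had 8.43 and 7.33 against 21.9 and 23.2 CPM in HEK293T, 53.0 and 59.0 against 228 and 298 in liver bud progenitors, and 137 and 132 against 517 and 427 in neurons. Both genes were low in HEK293T, and their order of fractions there was a condition of the ranking. Their log2 changes were -1.81 (SE 0.16, edgeR adjusted p = 1.4e-06) for WNK2 and -1.86 (SE 0.13, 5.62e-07) for AGRN. The other depleted genes of the first 15 included cell surface receptors and adhesion proteins (CELSR2, -1.54, NOTCH2, -1.5, and the receptor phosphatase PTPRF, -1.64), UPF1 (the helicase of nonsense-mediated decay, -1.56), FASN (fatty acid synthase, -1.67), PYGB (brain glycogen phosphorylase, -1.49), RIPOR1 (-1.56), IRGQ (-1.52) and YLPM1 (-1.56).

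**Figure D2:**
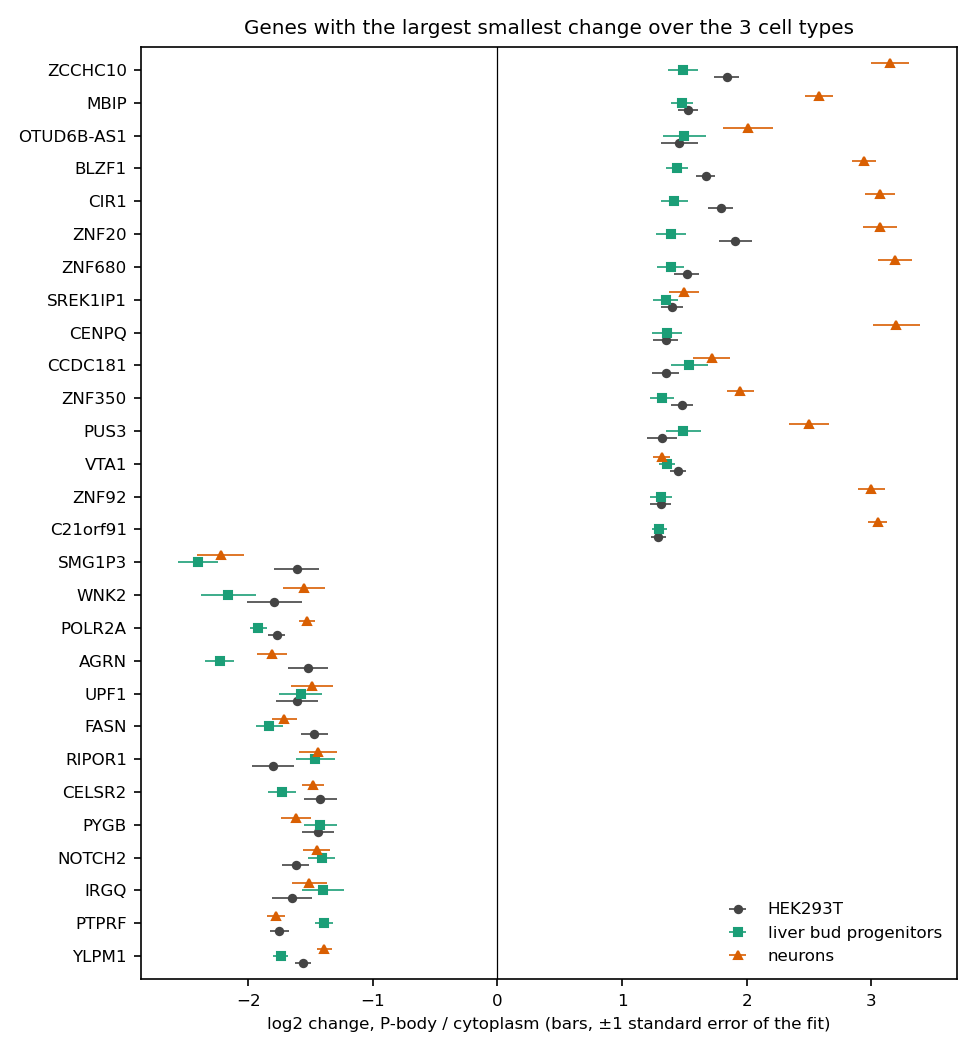
Log2 change (P-body over cytoplasm, x axis) of 15 enriched and 13 depleted genes with the largest smallest change, in HEK293T (circles), liver bud progenitors (squares) and neurons (triangles), with bars of 1 standard error of the fit. The enriched genes separate in neurons, with values up to 3.2 for CENPQ, while the depleted genes stay closer together, with UPF1 between -1.61 and -1.49.

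Zinc finger genes had the highest median of the 30 gene lists. Of 301 tested genes with KRAB or other C2H2 zinc finger symbols, mostly transcriptional repressors, 220 (73.1%) were enriched by the shared term and 25 (8.31%) depleted, with 184 enriched and 14 depleted in every cell type. Their median log2 change was 0.83, with 0.91 in HEK293T, 0.45 in liver bud progenitors and 0.96 in neurons. Of all tested genes, 35.7% were enriched and 36.3% depleted by the shared term, and 28% and 26.6% in every cell type. ZNF148 (1.34, SE 0.091, edgeR adjusted p = 5.62e-07) and ZNF350 (1.57, SE 0.11, 5.62e-07) had the smallest p, and ZNF512B (-0.91) and ZNF335 (-1.04) were depleted. Members of this family share sequence, so reads of close copies could be split between them.

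On human chromosome 19, where many of these genes lie in clusters, the 2 kinds of gene parted. Of 131 tested zinc finger genes there, 90 (68.7%) were enriched in every cell type and 0 depleted, with a median log2 change of 1.01. Of the 256 other tested genes of this chromosome, 5 (1.95%) were enriched in every cell type and 172 (67.2%) depleted, with a median of -0.90. Over all tested genes, these shares were 28% and 26.6%. The 5 were GPATCH1 (1.66), UBA2 (0.74), CARD8 (0.64), RHPN2 (0.64) and URI1 (0.63), named here after their values were seen. GC at the third codon position had a median of 39.6% in the zinc finger genes and 76.7% in the others. Across chromosomes, the share enriched in every cell type ran from 7.09% on chromosome 22, where 52.5% were depleted and the median third-position GC was 68.7%, to 44.3% on chromosome 4, where 14.9% were depleted and it was 42.9%.

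Lists of genes of cell division and genome repair held more enriched than depleted genes by the shared term, which called 35.7% of all tested genes enriched and 36.3% depleted. Of 52 DNA damage repair genes, 30 were enriched and 9 depleted (median 0.52), 25 and 9 of them in every cell type. The shares of all tested genes in every cell type were 28% enriched and 26.6% depleted. RBBP8, a DNA end resection factor (1.42), and the checkpoint kinase gene CHEK1 (1.14) were enriched, and PRKDC, the DNA-dependent protein kinase (-0.90), and MDC1, a scaffold at breaks (-1.07), were depleted. Of 32 kinetochore and spindle checkpoint genes, 20 were enriched and 7 depleted (median 0.59), with SKA2 at 0.89 and CENPN at 0.92 beside CENPT at -1.29 and AURKB at -0.60. Of 38 centrosome and cilium transport genes, 23 were enriched and 3 depleted (median 0.68), with CEP57 at 1.20 and CEP97 at 1.35 beside CEP164 at -0.87 and IFT52 at -0.91. Kinesin motors were called 14 times enriched and 7 times depleted of 28 (median 0.39), with KIF2A at 1.12 and KIF5B at 0.65, and KIF1A at -1.58 and KIF3C at -0.83. In every cell type, 12 kinesin genes were enriched and 5 depleted. In liver bud progenitors their median was 0.09, with 14 higher and 13 lower by that cell type's own test, and the median of all tested genes was -0.01.

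Chromatin and ubiquitin genes are given beside the shares of all tested genes, 35.7% enriched and 36.3% depleted. Of 41 histone lysine methyltransferase and demethylase genes, 19 were enriched and 13 depleted (median 0.20, 46.3% and 31.7%): KMT5B (0.81) and KMT2E (0.92) were held, and KMT2D (-1.86) and EHMT2 (-1.13) were kept out. Of 37 chromatin remodeller genes, 19 were enriched and 11 depleted (median 0.31), with RSF1 at 1.04 and BRD7 at 0.83, and SRCAP at -1.65 and CHD3 at -0.96. The medians of both lists were below 0 in liver bud progenitors, at -0.21 and -0.37. Of 44 cullin, F-box and KLHL adaptor genes, 26 were enriched and 11 depleted (median 0.46), with KLHL28 at 1.06 and FBXO38 at 1.09, and CUL7 at -1.37 and FBXL18 at -1.03. Of 36 ubiquitin-specific proteases, 15 were enriched and 11 depleted (median 0.08), shares of 41.7% and 30.6% that lie near those of all tested genes, with USP16 at 1.59 and USP46 at 0.79, and USP19 at -1.22 and USP5 at -1.17.

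The mRNAs of P-body, decapping and deadenylation factors were themselves split. Of 43 tested, 22 (51.2%) were enriched and 9 (20.9%) depleted (median 0.42), against 35.7% and 36.3% of all tested genes. In every cell type, 17 were enriched and 7 depleted, against 28% and 26.6% of all tested genes. The cap-binding gene EIF4E (0.94, SE 0.084, edgeR adjusted p = 1.75e-06) and the ubiquitin ligase gene CNOT4 (0.94) were enriched. EDC4, a decapping scaffold, was depleted, with 18.0 and 16.7 against 42.9 and 49.7 CPM in HEK293T, 21.7 and 17.5 against 45.3 and 51.2 in liver bud progenitors, and 48.3 and 34.6 against 95.7 and 74.3 in neurons. Its fractions did not overlap in any cell type (log2 change -1.25, SE 0.13, edgeR adjusted p = 3.88e-06), and the deadenylase gene PAN2 was also depleted (-1.07). DDX6 had 230 and 229 against 340 and 323 CPM in HEK293T, 573 and 555 against 365 and 361 in liver bud progenitors, and 657 and 713 against 252 and 271 in neurons. It was lower in P-bodies of HEK293T and higher in those of both other cell types, and its shared change of 0.50 (SE 0.24) missed the threshold (edgeR adjusted p = 0.0795).

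POLK, a translesion DNA polymerase gene, had 130 and 137 against 71.6 and 69.5 CPM in HEK293T, 117 and 116 against 69.7 and 67.5 in liver bud progenitors, and 96.6 and 98.5 against 30.6 and 30.3 in neurons (log2 change 1.11, SE 0.14, edgeR adjusted p = 1.41e-05). TET2, a DNA demethylation enzyme gene, had 847 and 809 against 347 and 358 CPM in HEK293T, 503 and 521 against 313 and 328 in liver bud progenitors, and 1790 and 1840 against 484 and 470 in neurons (1.28, SE 0.17, 2.61e-05). Both genes were higher in every P-body library than in any cytoplasm library of the same cells.

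Lists of metabolism, secretion and the cytoskeleton held larger depleted shares by the shared term than all tested genes. Of all tested genes, it called 36.3% depleted and 35.7% enriched. Of 14 glycolysis genes, 0 were enriched and 12 depleted (median -0.99), led by GPI (-1.27) and HK1 (-1.04). Of 34 genes of actin, tubulin and their folding and turnover, 25 were depleted and 1, CAPZA1 (0.35), was enriched (median -0.85), with FLNA at -1.59 and TLN1 at -1.43. Vacuolar ATPase and lysosomal genes were depleted in 18 of 25 cases (median -0.84), among them ATP6V0A1 (-1.12) and PSAP (-1.19), while ATP6V1C1 (1.15) and ATP6V1H (0.51) were enriched. Genes of folding and translocation in the endoplasmic reticulum were depleted in 19 of 32 cases (median -0.71), with GANAB at -1.39 and HYOU1 at -1.16, against 4 enriched, among them SEC62 (0.97) and SEC63 (0.42). Of 10 extracellular matrix, laminin and integrin genes, 8 were depleted (median -1.18), with COL6A1 at -1.62 beside AGRN, and 1, ITGB1 (0.69), was enriched. Of 19 genes listed for cholesterol, which include the fatty acid synthase gene FASN, 11 were depleted, with FASN and SREBF2 (-1.22). Another 4 were enriched, with IDI1 (1.04) and MSMO1 (0.51). In every cell type, 10 glycolysis, 20 actin and tubulin, 14 vacuolar and lysosomal, 14 endoplasmic reticulum, 6 matrix and 9 cholesterol genes were depleted. Enriched in every cell type were 0, 1, 2, 3, 1 and 2 genes in that order of lists. The shares of all tested genes in every cell type were 26.6% depleted and 28% enriched.

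Lists of transcription, translation, RNA-binding, nuclear transport and chaperone genes are given beside the shares of all tested genes (35.7% enriched and 36.3% depleted). Of 32 RNA polymerase II and Mediator genes, 13 (40.6%) were enriched and 14 (43.8%) depleted (median -0.16), with CCNC (1.05) and POLR2M (0.87) held and POLR2A and MED12 (-1.41) kept out. Of 21 aminoacyl-tRNA synthetase genes, 8 (38.1%) were enriched and 10 (47.6%) depleted (median -0.26), with RARS1 (1.00) and TARS1 (1.19) held and VARS1 (-1.36) and MARS1 (-0.96) kept out. Of 54 translation initiation and elongation factor genes, 12 (22.2%) were enriched and 26 (48.1%) depleted (median -0.24). EIF2A (0.94) and EIF4E were enriched, while EEF2 (-1.15) and EIF4G1, the scaffold that binds eIF4E in the cap complex (-1.35, SE 0.088, edgeR adjusted p = 5.48e-07), were depleted. Of 43 nucleoporin and nuclear transport genes, 11 (25.6%) were enriched and 17 (39.5%) depleted, with NUP58 at 0.95 and KPNA5 at 1.31, and XPO6 at -1.35 and NUP210 at -1.52. Of 30 hnRNP and SR protein genes, 6 (20%) were enriched and 17 (56.7%) depleted (median -0.35), with SRSF11 at 0.81 and SRSF10 at 0.43, and HNRNPL at -1.21 and HNRNPUL1 at -1.15. Of 26 chaperone genes, 8 (30.8%) were enriched and 6 (23.1%) depleted (median 0.05), with HSPH1 at 1.21 and DNAJA2 at 0.80, and CDC37 at -0.62 and FKBP4 at -0.60.

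Most ribosomal RNA genes and nuclear RNAs were depleted by the shared term, against 36.3% of all tested genes. Of 14 ribosomal RNA genes, 13 were depleted (median -1.37), but copies such as RNA18SN5 and RNA18SN3 (both -1.18) are near-identical, share reads and count as one. Of 8 small nuclear and other nuclear-retained RNAs, 6 were depleted and 0 enriched (median -1.27), with RMRP at -1.11 and SCARNA2 at -1.93. They did not move together in HEK293T, where 3 of the 8 had higher means in P-bodies and 2 of these passed that cell type's own test. One of them was NEAT1 (1.59 in HEK293T), which the shared term did not call. RNAs without a poly(A) tail were counted here also in libraries labelled polyA RNA.

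**Figure D3:**
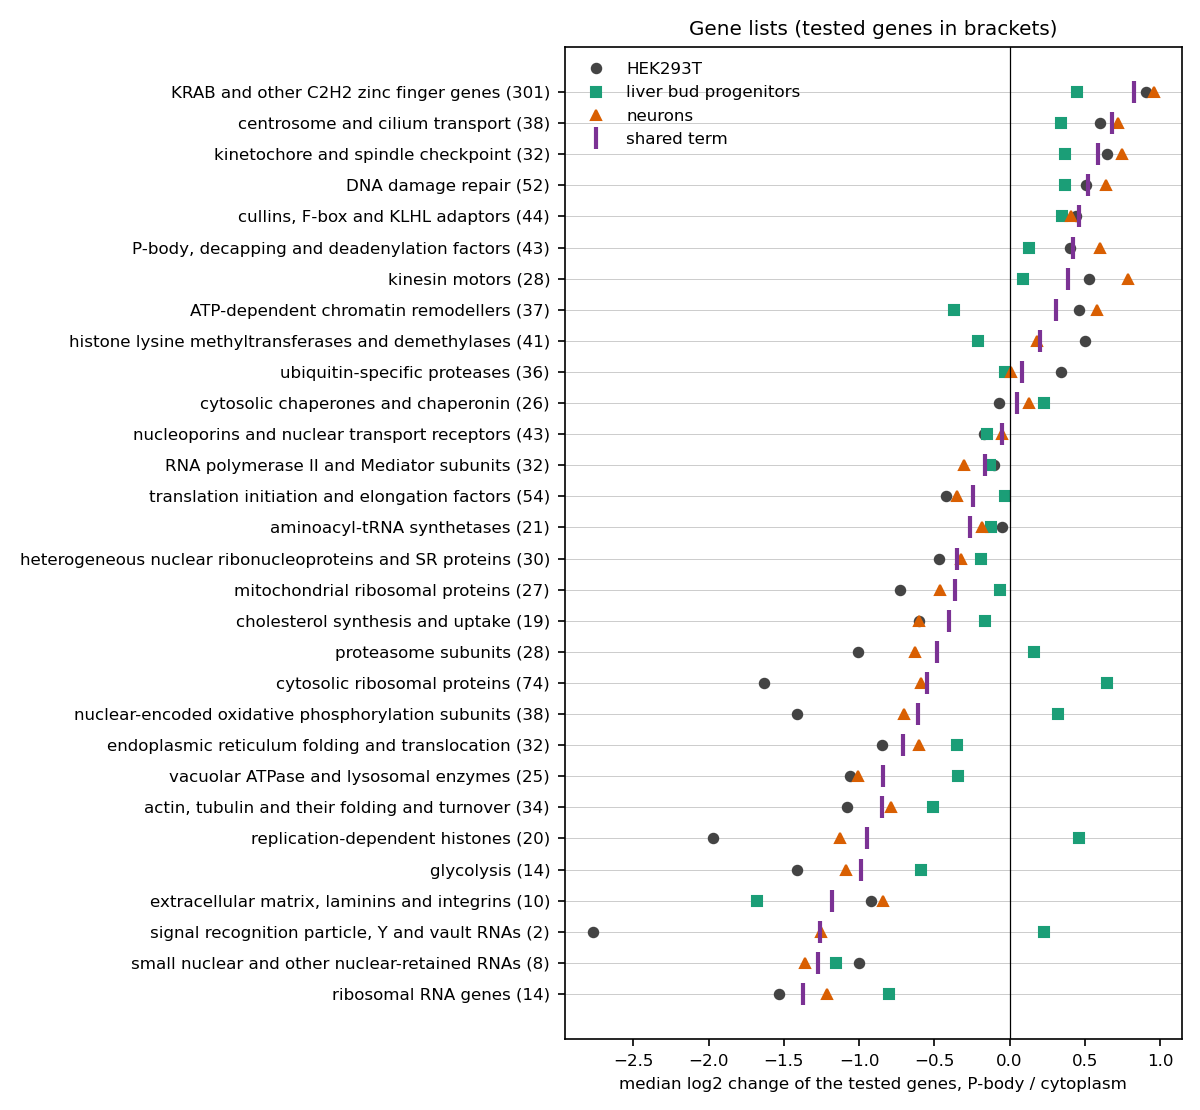
Median log2 change (P-body over cytoplasm, x axis) of the tested genes of each of 30 gene lists in HEK293T (circles), liver bud progenitors (squares) and neurons (triangles), with the median of the shared term as a purple bar. Lists run from zinc finger genes (0.83) at the top to ribosomal RNA genes (-1.37) at the bottom, and the squares of ribosomal proteins, histones, oxidative phosphorylation and the proteasome lie right of 0 while the circles and triangles lie left of it. Some markers close to 0 change side with the scaling.

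Ribosomal protein genes did not share the common effect. Of 74 cytosolic ribosomal protein genes, the shared term called 1 (1.35%) enriched and 25 (33.8%) depleted (median -0.55). Among all tested genes it called 35.7% enriched and 36.3% depleted, so the depleted share was near that of all genes. The change differed between cell types for all 74 ribosomal protein genes, and for 70.7% of all tested genes. In HEK293T, 73 were lower in P-bodies by their own test and 1 higher, with a median of -1.63. In liver bud progenitors, the median was 0.65, and 57 were higher and 1 was lower. The median in neurons was -0.59, with 55 lower and 3 higher. Over all tested genes, the medians were 0.13 in HEK293T, -0.01 in liver bud progenitors and -0.11 in neurons. The enriched member, RPL7L1 (0.91), is a ribosomal protein paralogue, and RACK1 (-0.76) was depleted in every cell type. RPS23, of the small subunit, had 59.2 and 61.6 against 304 and 297 CPM in HEK293T, 263 and 246 against 129 and 126 in liver bud progenitors, and 57.1 and 64.1 against 132 and 125 in neurons, so the order of its fractions turned in liver bud progenitors.

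Other lists shared this order of cell types, and their counts stand beside the 36.3% depleted and 35.7% enriched among all tested genes. Nuclear-encoded oxidative phosphorylation genes had medians of -1.41 in HEK293T, 0.32 in liver bud progenitors and -0.70 in neurons, with 21 of 38 depleted by the shared term, SDHA (-0.94) and ATP5F1B (-0.84) among them, and NDUFS1 (0.37) enriched. Replication-dependent histones had medians of -1.97, 0.46 and -1.13, with 15 of 20 depleted, H2BC18 (-0.95) and H2BC21 (-0.90) among them. Proteasome genes had medians of -1.01, 0.16 and -0.63, with 15 of 28 depleted, among them PSMD3 (-1.01) and PSMD2 (-1.10), and 4 enriched, among them PSMC1 (0.66) and PSMD12 (0.46). Mitochondrial ribosomal protein genes had medians of -0.73, -0.06 (above 0 under RLE and library-size scaling) and -0.46, with 14 of 27 depleted, among them MRPS25 (-1.06) and MRPL4 (-1.04), and 2 enriched, MRPL50 (0.81) and MRPL35 (0.57). The signal recognition particle RNAs RN7SL1 and RN7SL2, near-identical copies, had shared changes of -1.18 and -1.35 but 0.28 and 0.17 in liver bud progenitors.

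The change differed between cell types for 4478 of 6330 genes (70.7%) by an edgeR test of the interaction, among them 1311 of the 1775 enriched and 870 of the 1684 depleted in every cell type. Calls in opposite directions within cell types were made for 932 genes. NEAT1, a nuclear long noncoding RNA, had 160 and 166 against 54.9 and 53.4 CPM in HEK293T, 199 and 207 against 941 and 946 in liver bud progenitors, and 41.2 and 40.2 against 35.8 and 33.7 in neurons. H4C3, a histone H4 gene, had 169 and 181 against 795 and 833 CPM in HEK293T, 810 and 710 against 221 and 211 in liver bud progenitors, and 117 and 124 against 265 and 273 in neurons. NEAT1 was thus kept out in liver bud progenitors alone, and H4C3 was held there alone.

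LSM14A itself, whose counts can include the transcript of the fusion construct, had 316 and 320 against 413 and 418 CPM in HEK293T, 1660 and 1640 against 1600 and 1710 in liver bud progenitors, and 724 and 715 against 170 and 182 in neurons. It was lower in P-bodies of HEK293T, overlapped in liver bud progenitors and was higher in neurons, by 2.03 on the log2 scale (SE 0.056). Its difference between cell types had an edgeR adjusted p of 1.12e-11. The matching value was 5.93e-13 for NEAT1, 7.63e-13 for H4C3 and 2.17e-11 for RPS23.

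**Figure D4:**
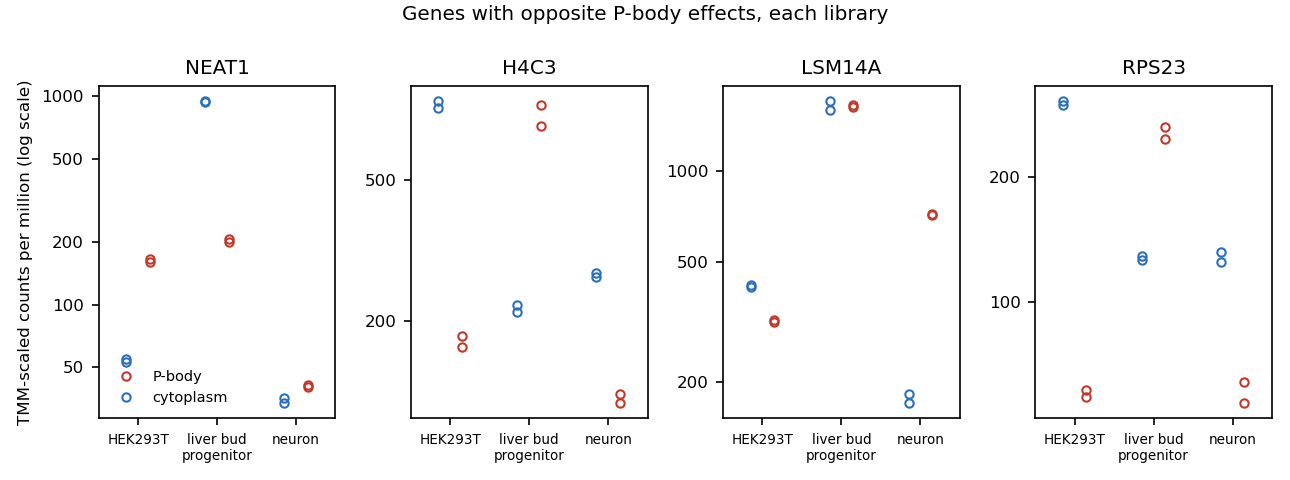
TMM-scaled CPM (y axis, log scale, a separate range in each panel) of the 4 genes with the smallest p for a difference between cell types among those called in opposite directions, with an open circle for each library in red for P-bodies and blue for cytoplasm. The red circles of H4C3 and RPS23 lie above the blue ones in liver bud progenitors and below them in HEK293T and neurons.

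Held and excluded genes differed in base composition. A coding transcript was found for 97.5% of the tested genes. GC at the third codon position had a median of 39.1% in the 1747 enriched genes with a value, 68.8% in the 1625 depleted genes and 52.3% in the other genes. GC of the 3′ UTR had medians of 35%, 51.2% and 40.4%. Transcript length had medians of 4880, 4090 and 4550 bases, and that of the 3′ UTR 2500, 1460 and 2210 bases. Coding length was close in both classes, at 1800 and 1790 bases, and 1530 in the others.

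The relation had the same sign in each cell type. Over 6169 genes, the Spearman correlation of third-position GC with the log2 change was -0.685 for the shared term (also -0.685 for GC of the whole coding sequence and -0.674 for GC of the 3′ UTR), -0.542 in HEK293T, -0.654 in liver bud progenitors and -0.649 in neurons. By contrast, that of coding length changed sign, at 0.177 in HEK293T, -0.241 in liver bud progenitors and 0.126 in neurons. Of 102 genes with 20 to 30% third-position GC, 73.5% were enriched in every cell type and 0.98% depleted. Of 359 genes with 80% or more, 1.67% were enriched and 73.0% depleted. The median log2 change was higher at under 40% than at 70% or more in each cell type, and the difference, high minus low GC, was -1.54 in HEK293T, -1.34 in liver bud progenitors and -1.68 in neurons. Replicate libraries of 1 group also differed with third-position GC, by -0.17 to 0.22 on the same scale. These values are descriptions across genes of 1 set of libraries, and the part of amplification and priming in the relation was not tested.

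**Figure D5:**
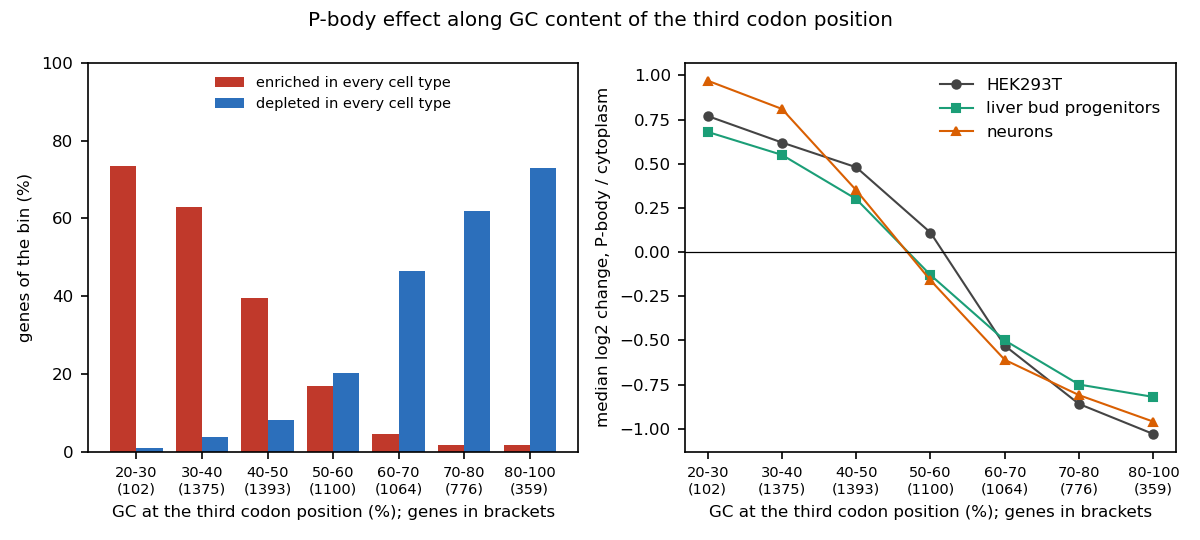
Left, the percentage of genes enriched (red) or depleted (blue) in every cell type in bins of GC at the third codon position, with the genes of a bin in brackets. Right, the median log2 change (P-body over cytoplasm) of the same bins in HEK293T, liver bud progenitors and neurons. The red bars go from 73.5 to 1.67% and the blue bars from 0.98 to 73.0%. The lines of liver bud progenitors and neurons are first below 0 in the bin from 50 to 60% GC, and that of HEK293T in the bin from 60 to 70%.

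Zinc finger genes and other genes were also set side by side within bins of GC. Between 30 and 40% third-position GC, 107 of 122 zinc finger genes (87.7%) and 759 of 1253 others (60.6%) were enriched in every cell type. Between 40 and 50%, it was 54 of 81 (66.7%) and 497 of 1312 (37.9%). The share was also higher for zinc finger genes in the 3 bins from 50 to 80%, but lower between 20 and 30% (4 of 7, 57.1%, against 71 of 95, 74.7%) and above 80% (0 of 8 against 6 of 351, 1.71%). The differences were not tested. Within families, the depleted members were likewise richer in GC: the median third-position GC was 33.8% in enriched and 51.7% in depleted DNA repair genes, 42.1 and 70% in RNA polymerase II and Mediator genes, and 39.9 and 62.5% in aminoacyl-tRNA synthetase genes.

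A small number of genes ran against this order, named after their values were seen. Of 1135 genes with 70% or more GC at the third codon position, 20 were enriched in every cell type. MRFAP1L1 (81.1% GC) had a log2 change of 1.05, the zinc finger gene ZIC5 (80.4%) one of 1.21, ZNF367 (70.9%) one of 1.58, the RNA-binding protein gene MEX3B (76.6%) one of 0.80, the GTPase gene RHOU (72.1%) one of 0.76 and CHMP1B (72.4%) one of 0.89. Of 1477 genes under 40%, 52 were depleted in every cell type. Among these were HNRNPA2B1 (30.2% GC, log2 change -1.13) and SRSF5 (37.1%, -0.93), both RNA-binding proteins of splicing, MCTS1, a translation reinitiation factor gene (32.0%, -1.06), ADGRV1 (36.3%, -1.03), LRBA (37.9%, -1.10) and BIRC6 (35.4%, -0.97).

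The classes were read out in a further species, in libraries that took no part in choosing them. Mouse embryonic stem cells (KH2-LSM14a-GFP, grown in serum with LIF, total RNA) gave 2 P-body and 2 cytoplasm libraries, and 4946 of the human genes had a tested mouse gene of the same symbol. Of these, 40% were enriched in mouse P-bodies and 39.4% depleted. Of 1410 genes enriched in every human cell type, 1127 (79.9%) were enriched in the mouse cells and 65 (4.61%) depleted, with a median log2 change of 0.69. Of 1341 genes depleted in every human cell type, 1085 (80.9%) were depleted and 68 (5.07%) enriched, with a median of -0.53. Read from the mouse side, these made up 56.9% of the 1980 enriched and 55.6% of the 1951 depleted mouse genes. The other 2195 human genes stood near even, with 35.8% enriched and 36.5% depleted. MBIP (1.97, edgeR adjusted p = 4.62e-27), POLK (1.68, 7.71e-31) and CHEK1 (1.01, 3.41e-15) were enriched in the mouse cells, and KMT2D (-1.87, 2.23e-27), POLR2A (-1.38, 1.99e-29) and EDC4 (-0.67, 5.96e-10) were depleted. Among the named genes that were not called there were VTA1, CEP97 and MDC1, at 0.07, 0.05 and -0.01.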

How the data were processed

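P-body and cytoplasm RNA was sequenced in 2 libraries per fraction of 3 human cell types and of mouse embryonic stem cells. The deposited values are raw counts of reads, with 1 row for each gene symbol. Per the study's methods, snapTotal-seq reads went through the nf-core RNA-seq pipeline with salmon (hg38 or mm10, refGene) and genes under 10 reads were removed, and Smart-seq reads through hisat2 and featureCounts; which of the 2 made the polyA columns, and whether strand was used, is not given in the sources used here. Salmon divides reads among near-identical copies, and random priming covers RNAs that poly(A) priming does not, so levels between HEK293T and the other cells are not compared. Tables of the authors' own DESeq2 fold changes and p-values were not used.

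All genes that averaged 10 CPM or more within each cell type were fitted with edgeR 4.0.16 (TMM scaling, quasi-likelihood test, Benjamini-Hochberg adjustment over all 6330 genes, R 4.3.3): a shared P-body term with cell type as a block for the common effect, and group means for effects within cell types, their differences (interaction) and list medians. The mouse libraries were fitted apart and matched by symbol. CPM are TMM-scaled. The shared term recovered known changes in simulated counts in which the change was the same in every cell type. Most genes here differed between cell types, so the simulation does not show how the fits do on these data. Replicate libraries correlated at 0.971 to 0.997 (Spearman) and differed by more than sampling noise. No label says that replicates came from separate cultures, so within-type and interaction p-values measure the spread between these libraries, which may be technical. The spread behind the shared term also takes in differences of the P-body effect between cell types. For NEAT1 the SE of the shared term was 0.5, against 0.06 to 0.078 within cell types. Features came from the longest coding transcript of GENCODE 44 on hg38, matched by symbol for 97.5% of tested genes, and chromosomes from RefSeq names for 98.6%. Correlations and list medians across genes are given without a test.

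Named genes were the 15 enriched and 15 depleted with the largest smallest change over cell types among those with a common order, up to 2 per direction and list by smallest p, the 4 with the smallest interaction p among those called in opposite directions, and LSM14A, EDC4, DDX6, POLK and TET2; those outside this rule are marked in the text, and 3 are not reported here. The genes, lists and tests were chosen with earlier results of these data known. Alternatives covered scaling (RLE, library size only), DESeq2 1.42.0, filters, ribosomal RNA, a replicate block, averaged within-type effects, and leaving out each cell type and each library.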

Additional observations from a re-analysis of the deposited data

Results flagged for a closer look

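The P-body effect differed between the 3 cell types for 4478 of 6330 genes by the edgeR interaction test, and for 90 of the 135 named genes. The range from the lowest to the highest of the 3 log2 changes is given for each of these. Among the 43 that were enriched in every cell type, the change was highest in neurons for 34 and lowest in liver bud progenitors for 23. Those with a range above 1 were CENPQ (1.85), ZNF680 (1.81), C21orf91 (1.76), ZNF92 (1.70), ZNF20 (1.68), ZCCHC10 (1.66), CIR1 (1.65), BLZF1 (1.5), USP16 (1.46), TET2 (1.26), SRSF11 (1.23), PUS3 (1.18), MBIP (1.09), TARS1 (1.04) and CEP97 (1.02). The range was narrower for POLK (0.91), HSPH1 (0.88), KPNA5 (0.85), ITGB1 (0.81), CHEK1 (0.78), ATP6V1H (0.77), KMT2E (0.75), PSMC1 (0.73), FBXO38 (0.71), RPL7L1 (0.65), RARS1 (0.63), ZNF350 (0.62), SEC63 (0.57), RSF1 (0.55), RBBP8 (0.54), KMT5B (0.53) and SRSF10 (0.53). It was below 0.5 for ATP6V1C1 (0.46), PSMD12 (0.45), SKA2 (0.45), CNOT4 (0.44), BRD7 (0.40), CCNC (0.39), CAPZA1 (0.39), ZNF148 (0.39), KIF2A (0.38), EIF2A (0.34) and NUP58 (0.29).

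Among the 36 that were depleted in every cell type, the change was lowest in liver bud progenitors for 17, in HEK293T for 11 and in neurons for 8. The widest ranges were those of SCARNA2 (2.14), RACK1 (1.32), ATP5F1B (1.28), MDC1 (1.11), KIF1A (1.07), KMT2D (1.06) and MRPL4 (1.04). Between 0.5 and 1 were CUL7 (0.95), ZNF335 (0.89), CEP164 (0.89), H2BC21 (0.80), SMG1P3 (0.79), PSMD2 (0.78), RMRP (0.77), MED12 (0.75), RNA18SN5 and RNA18SN3 (0.73 each), AGRN (0.72), CDC37 (0.69), PSAP (0.68), KIF3C (0.64), SRCAP (0.61), GPI (0.59), FKBP4 (0.57), PSMD3 (0.55) and EEF2 (0.53). Below 0.5 were TLN1 (0.49), MARS1 (0.48), GANAB (0.41), POLR2A (0.40), XPO6 (0.39), PTPRF (0.38), YLPM1 (0.35), FLNA (0.35), EIF4G1 (0.33) and HNRNPL (0.29).

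The remaining 11 had no common order of the fractions. Their ranges were 4.03 for H4C3, 3.81 for NEAT1, 3.31 for RPS23, 3.09 for RN7SL2, 2.91 for RN7SL1, 2.42 for LSM14A, 1.92 for DDX6, 1.37 for IFT52, 1.07 for H2BC18, 0.85 for MSMO1 and 0.64 for NDUFS1. The change was lowest in HEK293T for 10 of the 11. Library kind, parent line and cell type move together in the comparison with HEK293T and cannot be told apart.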

How the results depend on the processing

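Counts stayed within 1.5 times of the main ones under RLE size factors, library size only and DESeq2. The median shared change of all genes moved by 0.05 under RLE and 0.08 under library size only, which also shifted neurons by 0.26 and HEK293T by -0.12. Under 1 or both scalings, list medians turned above 0 in liver bud progenitors for ubiquitin-specific proteases, mitochondrial ribosomal proteins and translation factors, and in neurons for nucleoporins and aminoacyl-tRNA synthetases. With a minimum of 1 CPM, 3415 genes were enriched by the shared term, with no filter 3526 enriched and 3522 depleted, and with 50 CPM 872 and 676, of which 713 and 522 in every cell type, with 1781 that differed between cell types; here fewer or more genes were tested. Without liver bud progenitors, 2703 genes differed. With the replicate block, 2054 genes were enriched and 2079 depleted; replicate numbers are not stated to pair samples, and same-numbered libraries deviated together by correlations of only -0.137 to 0.138. With each library left out in turn, 2124 to 2287 genes were enriched, 2178 to 2324 depleted, 1775 to 1863 and 1693 to 1761 in every cell type, and 4118 to 4942 differed.

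Shared changes turned sign for 4 genes without a shared call and for 3 lists. NEAT1 was at 0.06 with 1 CPM, 0.01 with no filter, 0.98 without liver bud progenitors, and between -0.45 and 0.32 with a library left out. H4C3 (0.40), RPS23 (0.03) and the medians of ribosomal proteins (0.09), ubiquitin-specific proteases (-0.03) and RNA polymerase II and Mediator genes (0.12) turned without HEK293T, LSM14A (-0.25) without neurons, and the last list (0.36) with 50 CPM. DDX6 passed without either HEK293T P-body library (0.67 each) or either HEK293T cytoplasm library (0.61 and 0.59), and RPS23 without liver bud progenitor P-body replicate 1 (-0.96) or either cytoplasm library of these cells (-1.16 and -1.17). NDUFS1, MSMO1, CAPZA1, IFT52, ATP6V1H, RN7SL1 and RN7SL2 lost their call under at least 1 filter or left-out cell type. The causes were not tested. The 2 libraries per group limit what could be called.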

Other observations

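Within the CCR4-NOT deadenylase complex and the Argonaute family, the members did not share a direction. These genes were named after their values were seen. The deadenylase genes CNOT6 and CNOT8 had shared log2 changes of 0.66 and 1.05, and the subunit gene CNOT2 had 0.78, each with both P-body libraries above both cytoplasm libraries in every cell type. CNOT3 and CNOT11, also subunits, had -0.78 and -0.86 with the opposite order throughout. AGO3 and AGO4 had 0.58 and 0.53 and were enriched in every cell type, AGO1 had -0.26 and was depleted in every cell type, and AGO2, at 0.18, was not called (edgeR adjusted p = 0.189).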
